A study of Mus musculus with 18 samples.

Results

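The genes described are 10 components of the actin cytoskeleton, named one by one: Actb, Actg1, Tmsb4x, Cfl1, Pfn1, Coro1a, Tagln2, Tpm4, Diaph1 and Marcks, out of 46983 genes per table. They were chosen by name with results of these data already known, and no threshold or value is recorded for the choice. Every level and difference below therefore counts as used in it and is given as a description. RNA was sequenced from T cells of the CD8+ and the CD4+ (T helper) kind and from dendritic cells, each sorted out of tumours of MC38, a mouse colon carcinoma line, grown in female C57BL/6 mice aged 6 weeks. Every mouse was treated with anti-PD-1, which blocks the receptor PD-1 on T cells, at 200 µg per mouse 2 times a week for 2 weeks. One group was given the antibody alone, and the other also D18, an agent known here by its code name, at 25 µg per mouse 1 time a week. The first dose came when tumours averaged 100 mm3, between day 7 and day 10 after injection of the cells. Each of the 3 sorts gave 3 libraries per treatment, 18 in all, and no tumour without anti-PD-1 was included. Mice were pooled and then divided, and whether replicates are separate mice is not stated. The p-values therefore measure the spread between these libraries, which may be technical.

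Actin is a protein that cycles between single monomers and long filaments, and the shape, movement and contacts of immune cells follow from where filaments grow. Monomers are held in reserve by thymosin beta-4 (Tmsb4x) and delivered to growing ends by profilin (Pfn1). Formins such as mDia1 (Diaph1) build straight filaments, the Arp2/3 complex builds branched ones, and cofilin (Cfl1) cuts old filaments back into monomers. T cells rebuild this network when they form a synapse with an antigen-presenting cell, and dendritic cells when they take up antigen and migrate.

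The 2 cytoplasmic actins are encoded by separate genes whose messages are close copies, which bears on how far their reads can be told apart. Actb, the gene of beta-actin, lies on chromosome 5 from 142903115 to 142906754 (minus strand, GRCm38) and Actg1, the gene of gamma-actin, on chromosome 11 from 120345690 to 120348542 (minus strand). Both coding sequences have 1128 bases, of which 128 differ (88.7% identity). The first 60 coding bases of each, from the GENCODE M21 transcripts, are shown because 9 of the differences lie there, in capitals:
Actb: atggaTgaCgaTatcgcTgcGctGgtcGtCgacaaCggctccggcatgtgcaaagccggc
Actg1: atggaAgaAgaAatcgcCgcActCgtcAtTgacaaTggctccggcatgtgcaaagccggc
The longest stretch in which both are identical has 62 bases, and 30 of 1079 windows of 50 bases are the same in both. A read from such a stretch can be assigned to neither or to either gene, so the Actg1 counts in particular are uncertain.

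The libraries were shallow, with 11170 to 266392 reads assigned to genes and 9560 to 251927 of these on nuclear genes. Levels below are reads scaled to 1000000 nuclear reads per library (CPM). At 95% confidence 0 reads leave room for 3, or 11.9 CPM at the greatest depth and 314 CPM at the least, in dendritic D18 replicate 2. Such limits and all counting intervals cover counting error only, since the reads carry no molecular identifiers. Several libraries went against their labels or stood apart. The mitochondrial share of reads ran from 2.39% to 71.9%, with a median of 21.9%. It was highest in anti-PD-1 replicate 2 of the dendritic sort (71.9%) and of the CD4+ T cell sort (67.7%). Among the CD4+ T cell libraries, replicates 1 and 2 with the antibody alone held 0 and 1 reads of Cd3e, part of the T cell receptor, and 4 and 11 of 15 T cell marker genes had a read. Cd8a, a marker of CD8+ T cells, had 83 reads and Cd4 had 2 in CD4+ D18 replicate 3, while D18 replicates 1 and 2 had 0 of Cd8a and 16 and 10 of Cd4. In the dendritic sort, all 15 T cell markers had reads in both libraries numbered 3, against 0 to 3 in the other 4. The 14 dendritic cell markers summed to 12299, 43628 and 9070 CPM in the dendritic sort with the antibody alone and to 13133, 4498 and 8166 CPM with D18. Between 5 and 8 of the 14 genes had a read in the former group and between 6 and 12 in the latter. H2-Aa, an MHC class II gene, had 151, 689 and 269 reads against 391, 11 and 289, while Flt3, a receptor of dendritic cells, had 0 in each library of the former and 13, 1 and 3 with D18. Monocyte and macrophage markers were present in every library, with 9 to 16 of 16 genes read. Anti-PD-1 replicates 1 and 2 of every sort also formed a set of 6 libraries without a read of mt-Atp6, mt-Co2 or mt-Co3, while the other 12 libraries had 5 to 334. No label names this split as a batch. It leaves 1 anti-PD-1 library per sort in the set that holds all D18 libraries, and a value with the set as a term in the model, called the within-set value below, rests on that library.

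All 10 genes had at least 1 read in each of the 18 libraries. Together they took between 1.38% and 5.16% of the nuclear reads of a library, most of it Actb and Tmsb4x. Per kilobase of exon (RPKM), Tmsb4x had the highest mean over the 18 libraries, 11167 ± 5816 RPKM (SD, n = 18), and was above Actb in 17 of 18. Among protein-coding genes with a read, Tmsb4x ranked 2, 2 and 3 by mean RPKM in the CD8+ T cell, CD4+ T cell and dendritic sorts, and Actb ranked 3, 8 and 10. Actb followed with 4258 ± 1260 RPKM and was above Cfl1, at 1222 ± 464 RPKM, in 18 of 18 libraries. Pfn1 (682 ± 273 RPKM) and Coro1a (622 ± 263 RPKM) were not separated, since Pfn1 was higher in 12 of 18 libraries. The same held for Tagln2 (340 ± 123 RPKM) and Actg1 (305 ± 147 RPKM), with Tagln2 higher in 11 of 18. Tpm4 stood below both at 110 ± 52.8 RPKM. Marcks (46.0 ± 55.1 RPKM) and Diaph1 (30.5 ± 30.8 RPKM) were lowest, with means smaller than their SD, and their order changed from sort to sort. Marcks ranked 2271 of 11948 genes in the CD8+ T cell sort but 769 of 12023 in the CD4+ T cell sort and 975 of 14085 in the dendritic sort.

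**Figure D1:**
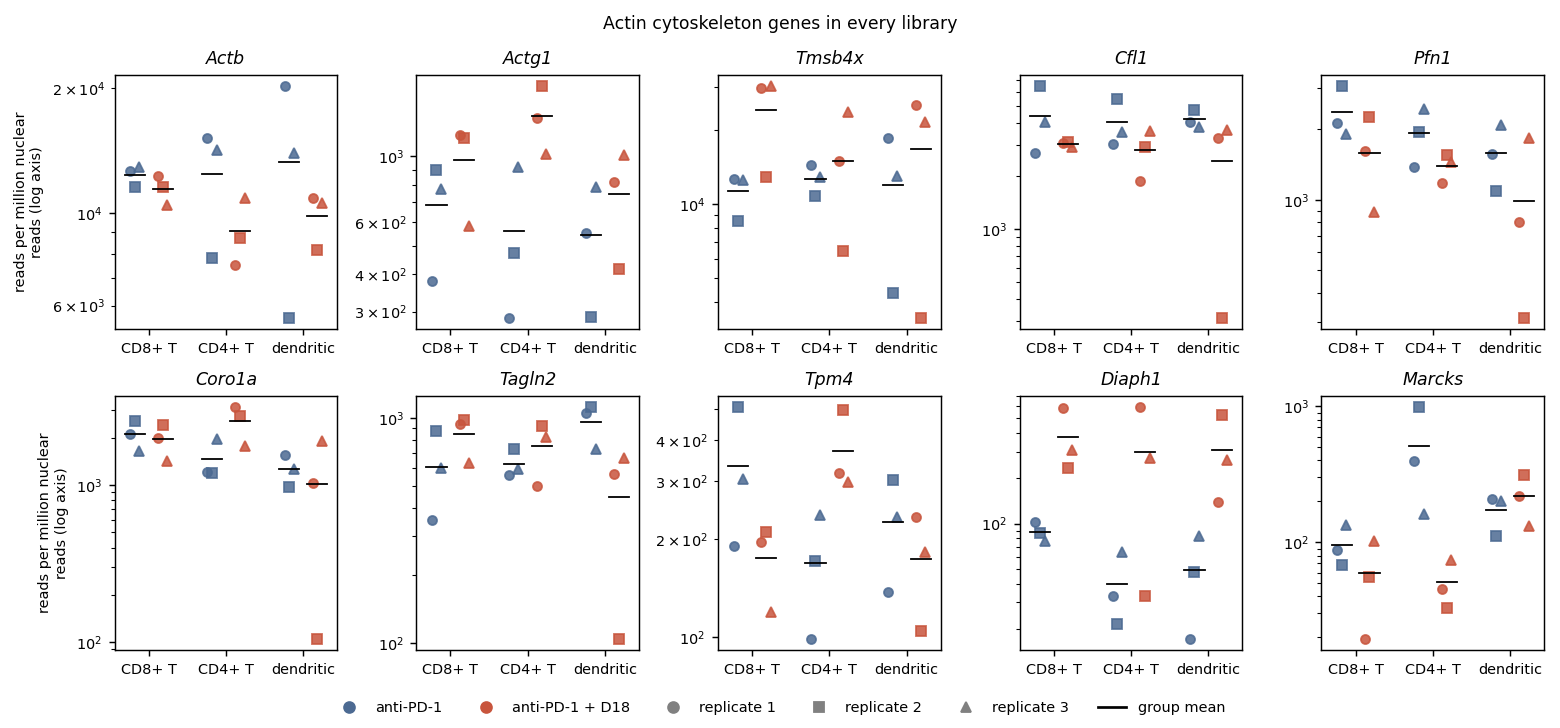
Level of each gene in every library, in CPM on a log axis. Blue is anti-PD-1, red anti-PD-1 plus D18, the symbol gives the replicate number and the black line the group mean of 3 libraries. Diaph1 in the CD8+ T cell sort runs from 76.3 to 103 with the antibody alone and from 234 to 586 with D18.

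The genes differed in how steady they were. Actb was among the steadiest, from 5609 to 20257 CPM, a 3.61-fold range over the 18 libraries. Cfl1, Pfn1, Coro1a and Tagln2 ranged 9.75-fold to 30.0-fold, but without dendritic D18 replicate 2, where they had 3, 3, 1 and 1 reads, their ranges were 3.18-fold to 3.79-fold. Diaph1 (34.4-fold) and Marcks (50.4-fold) kept their wide ranges without that library.

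No gene of the 10 differed between treatments after adjustment over all genes tested. Changes were tested with limma on log2(normalised reads + 1) among genes with a mean of at least 10 normalised reads in a sort, which held for 9 of the 10 genes in the CD8+ T cell sort and for all 10 in the others. Marcks, with a mean of 7.40, was left out in the CD8+ T cell sort, and some genes passed through 1 group only. These were Diaph1 in each sort, with a mean of 8.30 against 35.5 with D18 in CD8+ T cells, 2.38 against 18.4 in CD4+ T cells and 3.14 against 17.01 in the dendritic sort. Tpm4 in CD4+ T cells (9.94 against 22.1) passed through its D18 libraries too, and Marcks there (29.4 against 3.11) through the libraries with the antibody alone. With the Benjamini-Hochberg adjusted p held against 0.05, 0 of 9 were called in the CD8+ T cell sort (0 of 1569 genes, 0%), 0 of 10 in the CD4+ T cell sort (0 of 966, 0%) and 0 of 10 in the dendritic sort (0 of 886, 0%). With the replicate number as a block limma called 20 genes in the CD8+ T cell sort, 0 of them among the 9. At an unadjusted p under 0.05 the counts were 1, 2 and 0 of the 10 genes, beside 130 (8.29%), 100 (10.4%) and 61 (6.88%) of all genes. Nothing is read from these counts, since genes that passed through their high group had to differ. With limma-voom the count was also 0 in each sort, with 176, 99 and 128 genes at an unadjusted p under 0.05. In the CD8+ T cell sort D18 libraries had the higher mean for 4 of the genes and the lower for 5, and the median log2 difference was -0.13 beside -0.03 over all genes tested. The CD4+ T cell sort had 6 higher and 4 lower, with a median of 0.16 beside 0.03. Without its D18 replicate 3, in which Cd8a exceeded Cd4, Tmsb4x there was -0.36 and the other 9 kept their sign. In the dendritic sort 4 were higher and 6 lower, with a median of -0.38 beside -0.65. That last comparison rests on dendritic D18 replicate 2, without which 6 of the genes were higher, 4 were lower and their median was 0.07, beside 0.06 over all genes. Quantile normalisation put the median of all genes in the dendritic sort at -0.07 and the share higher with D18 at 47.0%, against 30.9%. Under that scaling the 10 genes split 5 higher and 5 lower there, 5 and 4 among the 9 in the CD8+ T cell sort, and 7 and 3 in the CD4+ T cell sort.

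**Figure D2:**
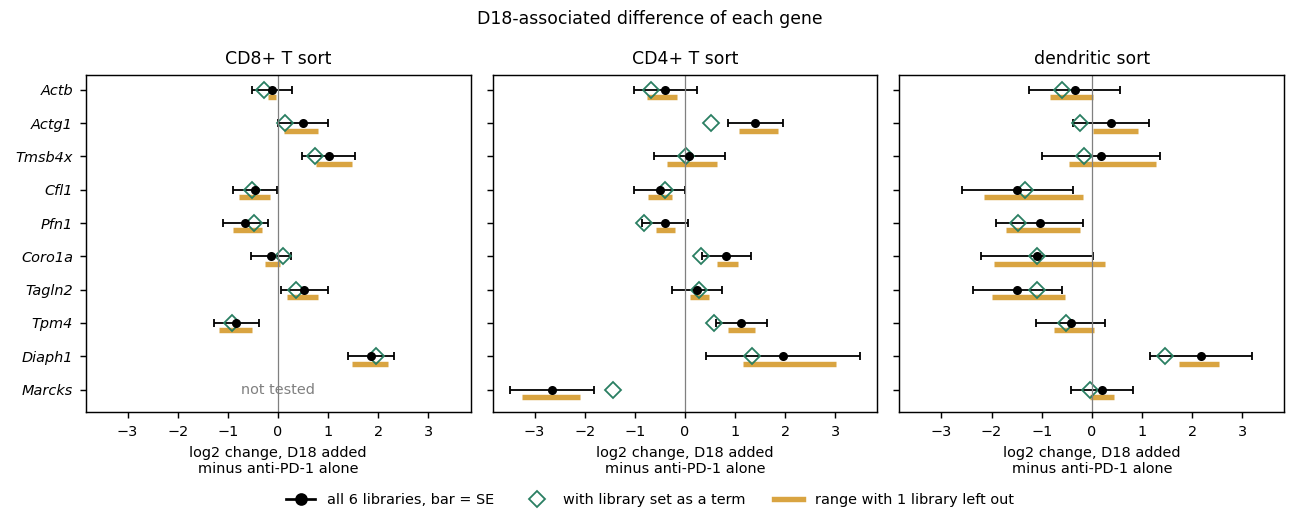
Difference between anti-PD-1 plus D18 and anti-PD-1 alone for each gene, on the scale of log2(normalised reads + 1). Black points are the limma estimate from 6 libraries with its SE, green diamonds the value with the library set as a term, and orange bars the range when 1 library is left out. Diaph1 lies to the right of 0 in all 3 sorts, and most other genes cross it in at least 1.

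Diaph1, the formin that builds straight actin filaments downstream of the GTPase RhoA, had a higher mean with D18 in all 3 sorts, past the adjusted test in none. It lies on chromosome 18 and shared no 50-base stretch with another gene's transcript. In CD8+ T cells it had 7, 14 and 8 reads in anti-PD-1 replicates 1, 2 and 3, or 103, 86.3 and 76.3 CPM. With D18 it had 30, 59 and 18 reads, or 586, 234 and 308 CPM. All 3 D18 libraries were above all 3 anti-PD-1 libraries. The group means were 88.4 ± 13.3 and 376 ± 186 CPM (SD, n = 3 each), and the log2 difference of Diaph1 was 1.86 ± 0.46 (SE), or 3.62-fold, with a limma adjusted p of 0.534 that ran from 0.0589 to 1.00 over the alternatives. The within-set value was 1.95.

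In CD4+ T cells Diaph1 stood at 33.0, 21.4 and 64.6 CPM with the antibody alone, from 3, 1 and 6 reads, and at 592, 33.0 and 271 CPM with D18, from 26, 1 and 29 reads. D18 replicates 1 and 3 were above every anti-PD-1 library, while D18 replicate 2, with a single read, lay among them. The log2 difference was 1.96 ± 1.53 (limma adjusted p = 0.643), 3.02 without D18 replicate 2 and 1.16 without D18 replicate 1. Dendritic libraries stood at 17.2, 47.9 and 82.7 CPM with the antibody alone, from 1, 3 and 11 reads, and 140, 523 and 264 CPM with D18, from 18, 5 and 36 reads. The groups did not overlap, although the highest level came from 5 reads in the shallowest library. The log2 difference there was 2.18 ± 1.02 (limma adjusted p = 0.551), and 1.90 without D18 replicate 2. The within-set values were 1.34 in CD4+ T cells and 1.45 in the dendritic sort.

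Macrophage markers had a lower median with D18 in each sort, with overlapping groups in both T cell sorts. The summed level of the 16 markers ran from 26777 to 53079 CPM with the antibody alone and from 1524 to 32010 CPM with D18 among CD8+ T cell libraries. The ranges were 27558 to 77647 and 9634 to 32146 CPM in the CD4+ T cell sort, and 48568 to 69358 and 15063 to 44337 CPM in the dendritic sort. No marker of this list was at 0 in all libraries of a group. In anti-PD-1 replicate 3, which shares the library set of D18, the sums were 53079, 27558 and 48568 CPM in the 3 sorts. They lay above every D18 library in CD8+ T cells and the dendritic sort, and among the D18 libraries in CD4+ T cells. Summed T cell markers in the CD4+ T cell sort ran from 44.0 to 7574 CPM with the antibody alone and from 5102 to 9155 CPM with D18. Over the 18 libraries, the correlation of Diaph1 on log2 levels was -0.69 with the macrophage list, -0.53 with the dendritic list and 0.55 with the T cell list (Pearson's r, n = 18). That of Marcks was 0.69, 0.69 and -0.47, and that of Actg1 -0.53, -0.48 and 0.65. With the mitochondrial share of reads the correlation was -0.54 for Actb, -0.56 for Actg1 and 0.54 for Marcks. The remaining genes lay between -0.31 and 0.26 there. These are descriptions, because the libraries share sorts, depth and the library set. The part of the macrophage markers in the differences of Diaph1 and Marcks was not tested. Nor was that of the mitochondrial share in any difference. In bulk samples fewer cells of a type and less RNA per cell cannot be told apart.

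**Figure D3:**
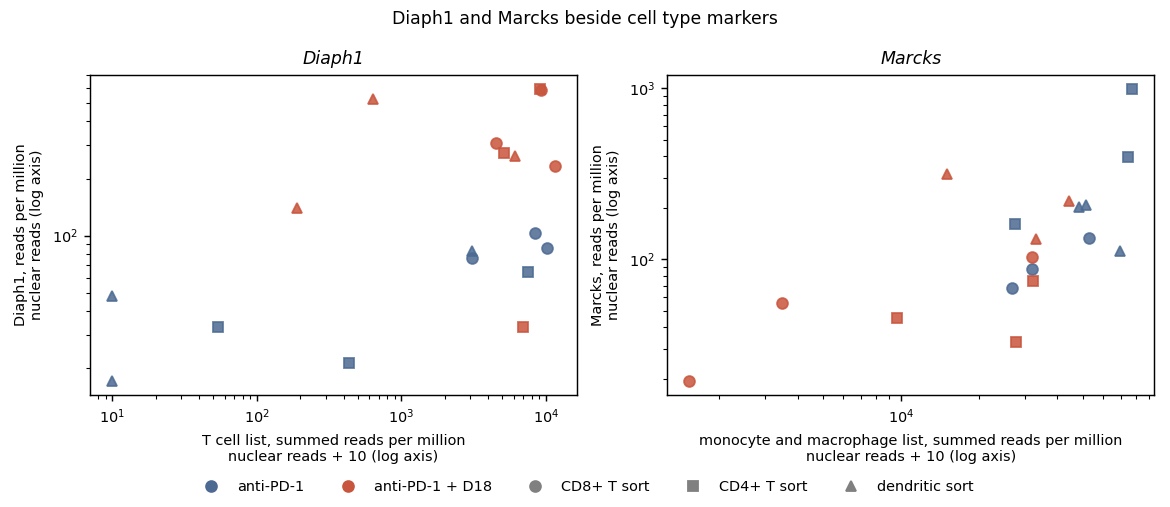
Diaph1 against the summed T cell markers (left) and Marcks against the summed monocyte and macrophage markers (right), 1 point per library, all axes log scaled in CPM, with 10 added to the marker sums. Colour gives the treatment and symbol the sort. The 2 highest Marcks levels, 396 and 986, are CD4+ T cell anti-PD-1 libraries with marker sums of 74747 and 77647.

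Marcks encodes a protein that binds actin filaments and the inner face of the plasma membrane until protein kinase C releases it. It lies on chromosome 10 from 37133375 to 37138920 (minus strand, GRCm38). In the CD4+ T cell sort it had 36, 46 and 15 reads with the antibody alone, or 396, 986 and 162 CPM, and 2, 1 and 8 reads with D18, or 45.5, 33.0 and 74.8 CPM. Every D18 library was below every anti-PD-1 library, and the 2 anti-PD-1 libraries with almost no T cell markers were the highest. The log2 difference of Marcks was -2.65 ± 0.84 (SE, n = 3 per group), 0.159 of the anti-PD-1 level, with a limma adjusted p of 0.453. The within-set value was -1.44. With both libraries numbered 3 left out it was -3.50 with a limma adjusted p of 0.0499, and the adjusted p ran up to 0.999 over the other alternatives. Those numbers then compare D18 libraries with the pair of anti-PD-1 libraries that hold few reads of T cell markers (4 and 20).

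In the other sorts Marcks did not show that separation. In CD8+ T cells it had 6, 11 and 14 reads (88.0, 67.8 and 134 CPM) with the antibody alone and 1, 14 and 6 reads (19.5, 55.6 and 103 CPM) with D18, and the groups overlapped. Without the filter on low reads the log2 difference was -0.78 ± 0.73 (limma adjusted p = 0.663). Dendritic libraries stood at 207, 112 and 203 CPM with the antibody alone and 217, 314 and 132 CPM with D18, again overlapping (0.20 ± 0.61). That difference was -0.11 with limma-voom and -0.04 with the set as a term. The difference between the CD4+ T cell and dendritic changes of Marcks was -2.85 ± 1.02, with a limma adjusted p of 0.850 for the interaction.

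Actg1, gamma-actin, had a higher mean with D18 in the CD4+ T cell sort and beta-actin a lower one, neither past the adjusted test. Actg1 had 26, 22 and 85 reads with the antibody alone, or 286, 471 and 916 CPM, and 59, 52 and 109 reads with D18, or 1344, 1718 and 1019 CPM. The D18 libraries were all above the anti-PD-1 libraries, but D18 replicate 3 and anti-PD-1 replicate 3 were close. Anti-PD-1 replicates 1 and 2, the lowest, held few reads of T cell markers (4 and 20). The log2 difference of Actg1 was 1.41 ± 0.56, or 2.65-fold (limma adjusted p = 0.453), and the within-set value 0.53. Actb in the same libraries stood at 15231, 7801 and 14242 CPM with the antibody alone and at 7516, 8722 and 10915 CPM with D18. Its groups overlapped, and its log2 difference was -0.39 ± 0.62 (0.42 under quantile normalisation).

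The share of Actg1 among the reads of both actins gives the same pair of genes free of the scaling. In the CD4+ T cell sort gamma-actin made up 1.84%, 5.70% and 6.04% of these reads with the antibody alone and 15.2%, 16.5% and 8.54% with D18. The groups did not overlap, with means of 4.53 ± 2.33% and 13.4 ± 4.25% (SD, n = 3 each). Summed T cell markers in the same libraries were 44.0, 429 and 7574 CPM with the antibody alone and 9155, 6938 and 5102 CPM with D18. The part of these markers in the share was not tested. In CD8+ T cells the shares were 2.92%, 7.23% and 5.64% against 8.68%, 9.06% and 5.27%, and the groups overlapped. The dendritic shares were 2.65%, 4.88% and 5.36% against 6.97%, 4.88% and 8.73%, where D18 replicate 2 rests on 4 reads of Actg1. In each sort the lowest share was that of anti-PD-1 replicate 1. Reads on pseudogenes that share 50-base stretches with Actg1 came to 0% of its reads in the 6 libraries without mt-Atp6 reads and to between 0% and 14.3% in the other 12. Their part in the share was not tested. Of the 50-base stretches of the Actg1 transcripts, 37.4% also occur in other genes, against 9.12% for Actb. The exons of Actg1 overlap those of Gm23419 and Mir6935 on the same strand.

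**Figure D4:**
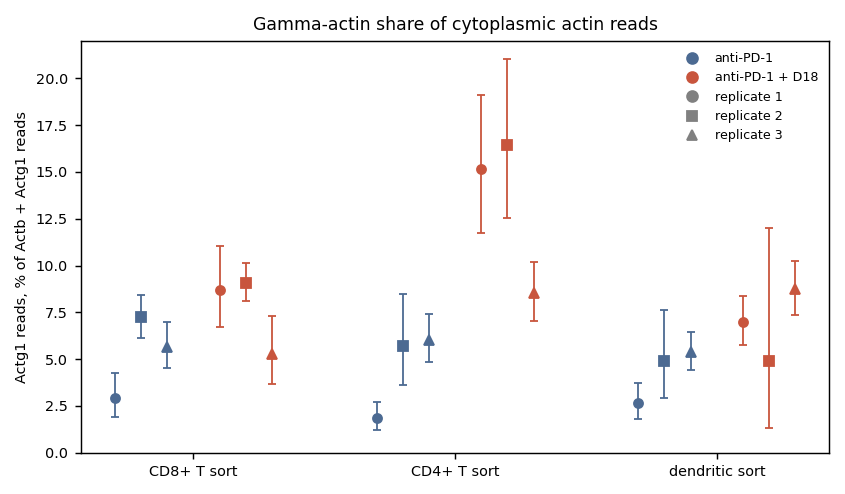
Reads of Actg1 as a percentage of the reads of Actb and Actg1, 1 point per library, with the exact (Clopper-Pearson) 95% interval of the count. In the CD4+ T cell sort the D18 libraries run from 8.54% to 16.5% and the anti-PD-1 libraries from 1.84% to 6.04%.

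In CD8+ T cells neither actin passed the test between treatments. Actb stood at 12671, 11554 and 12922 CPM with the antibody alone and at 12333, 11551 and 10459 CPM with D18, a log2 difference of -0.13 ± 0.40 that was 0.31 under quantile normalisation. Actg1 stood at 381, 900 and 772 CPM against 1173, 1151 and 582 CPM, with overlap (0.50 ± 0.50). In the dendritic sort Actb ran from 5609 to 20257 CPM with the antibody alone and from 8159 to 10880 CPM with D18 (-0.35 ± 0.91). Actg1 there ran from 288 to 790 CPM and from 418 to 1011 CPM (0.38 ± 0.75, and -0.24 with the set as a term).

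Of the promoters in the RefSeq table of GRCm38.p6, which hold 250 bases before and 50 after a start site, 8 matched 7 of the 10 genes, and those not matched were Actb, Marcks and Diaph1. Actin genes are textbook targets of serum response factor, which binds the CArG box and is switched on through its partner MRTF when the pool of actin monomers shrinks. Among the 8 promoters, 1 held a CArG box on either strand, beside 535 of 32851 promoters (1.63%). It belongs to Actg1, at chr11:120348551-120348610 on the minus strand, where the motif, in capitals, begins 90 bases before the start site:
Actg1 promoter: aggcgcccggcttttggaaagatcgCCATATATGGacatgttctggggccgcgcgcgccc
The motif GGGCGG, searched on both strands, was in 8 of the 8 promoters and in 35.7% of all. TATAAA was in 0 of the 8 and in 13.6% of all. These matches describe the sequence only. Of the 3 genes listed for actin-sensitive transcription, 0 had enough reads to be tested in any sort.

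Tmsb4x, the monomer reserve protein and the most abundant of the 10 messages per length, stood at 12700, 8546 and 12578 CPM with the antibody alone in CD8+ T cells and at 29610, 12857 and 30161 CPM with D18. It lies on the X chromosome from 167207093 to 167209315. D18 replicates 1 and 3 lay well above the rest. D18 replicate 2 was just above the highest library with the antibody alone in CPM and below it in normalised reads, the scale of the test. The log2 difference of Tmsb4x was 1.01 ± 0.53 (limma adjusted p = 0.671). In CD4+ T cells its levels were 14439, 10737 and 12885 CPM against 14917, 6443 and 23717 CPM. The log2 difference was 0.09 ± 0.71, and -0.32 with both libraries numbered 3 left out. Its dendritic levels were 18569, 4347 and 12965 CPM against 25209, 3452 and 21458 CPM, with the lowest value of each group in its replicate 2. The log2 difference there was 0.18 ± 1.18, and 1.28 without D18 replicate 2.

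Pfn1, which loads monomers onto growing filament ends, was lower with D18 by its estimate in each sort, with overlapping groups. It stood at 2126, 3058 and 1907 CPM against 1622, 2259 and 890 CPM in CD8+ T cells (-0.65 ± 0.46) and at 1387, 1950 and 2435 CPM against 1184, 1553 and 1448 CPM in CD4+ T cells (-0.41 ± 0.46). Its difference in the dendritic sort was -1.04 ± 0.86, and -0.23 without D18 replicate 2, where it had 3 reads. Cfl1, which severs old filaments, had estimates of the same sign, with -0.45 ± 0.44 in CD8+ T cells and -0.51 ± 0.51 in CD4+ T cells. Its 3 CD8+ D18 libraries were close together, at 3088, 3112 and 2910 CPM, inside the anti-PD-1 range of 2698 to 6455 CPM. In the dendritic sort Cfl1 had 236, 296 and 501 reads with the antibody alone and 423, 3 and 497 with D18, and its difference was -1.49 ± 1.11, or -0.18 without D18 replicate 2. Reads of Cfl1 are less certain, since 18.3% of its 50-base stretches occur in other genes and its exons overlap those of Snx32 on the other strand.

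Coro1a, a coronin of blood cells that binds filaments and is needed for T cell survival and migration, differed in sign between sorts. In CD4+ T cells it had 1222, 1200 and 1972 CPM with the antibody alone and 3143, 2742 and 1785 CPM with D18, so D18 replicates 1 and 2 were the highest and the groups overlapped through the libraries numbered 3. Anti-PD-1 replicates 1 and 2 of this sort held few reads of T cell markers (4 and 20). The log2 difference of Coro1a there was 0.82 ± 0.49 (limma adjusted p = 0.541), with a within-set value of 0.33. It was -0.14 ± 0.40 in CD8+ T cells (0.09 with the set as a term). Among dendritic libraries it was -1.09 ± 1.12, and 0.26 without D18 replicate 2, where Coro1a had 1 read. The exons of Coro1a overlap those of Bola2 on the other strand, and the libraries keep no strand.

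Tagln2, transgelin-2, which stabilises filaments at the T cell synapse, had 61, 70 and 97 reads with the antibody alone and 73, 1 and 91 with D18 in the dendritic sort, or 1051, 1119 and 729 against 567, 105 and 666 CPM. The D18 libraries were all below the anti-PD-1 libraries. The log2 difference of Tagln2 was -1.48 ± 0.90 (limma adjusted p = 0.551), and -0.53 without D18 replicate 2. It was 0.53 ± 0.47 in CD8+ T cells and 0.24 ± 0.49 in CD4+ T cells, with overlap in both.

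Tpm4 encodes a tropomyosin, a coiled coil that lies along filaments and guards them from cofilin. In CD4+ T cells it had 9, 8 and 22 reads with the antibody alone, or 99.0, 171 and 237 CPM, and 14, 15 and 32 reads with D18, or 319, 496 and 299 CPM. All D18 libraries were above all anti-PD-1 libraries, and the log2 difference of Tpm4 was 1.12 ± 0.51 (limma adjusted p = 0.471, within-set value 0.57). In CD8+ T cells its levels were 191, 506 and 305 CPM against 195, 210 and 120 CPM, the opposite sign with overlap (-0.83 ± 0.45). The interaction between these 2 sorts was -1.96 ± 0.64 for Tpm4, with a limma adjusted p of 0.992. The dendritic difference was -0.42 ± 0.69, and 0.31 under quantile normalisation. Of the 50-base stretches of Tpm4, 15.7% occur in other genes, and its exons overlap those of Gm26586 on the other strand.

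Groups did not overlap, with D18 higher, for 6.88% of all genes tested in CD8+ T cells, 5.28% for CD4+ and 4.18% in the dendritic sort. With D18 lower the shares were 7.65%, 9.21% and 19.9%. Of the genes described, Diaph1 (CD8+ and dendritic), Actg1 and Tpm4 (CD4+) were wholly higher and Marcks (CD4+) and Tagln2 (dendritic) wholly lower, and nothing is read from their number because all but Actg1 and Tagln2 passed the filter through the high group. Interactions between sorts called 0 of the genes, with smallest limma adjusted p values of 0.992 for CD8+ against CD4+ T cells, 0.986 for CD8+ T cells against the dendritic sort and 0.850 for CD4+ T cells against it. These fits called 0 of 916, 816 and 744 genes (0%, 0% and 0%), with 18 (1.97%), 2 (0.245%) and 9 (1.21%) genes at an unadjusted p under 0.05, 1, 0 and 1 of them among the 10.

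The 10 genes did not move as a unit over the libraries. On log2 CPM over 18 libraries, Cfl1 and Tagln2 had a Pearson correlation of 0.87, and 0.48 without the shallowest library. Pfn1 and Coro1a had 0.80 and 0.45 on the same libraries. Actg1 and Coro1a, in contrast, had 0.54 with all libraries and 0.70 without that one, and Actg1 and Marcks had -0.65 and -0.62. The genes outside the list most like the mean of the 10, among 718 compared, were Psmb4 (r = 0.94), Hnrnpa2b1 (0.93), Eef1b2 (0.91), Ppia (0.91) and Park7 (0.91). Without the shallowest library, in which 4 of these 5 had 0 reads, their values were 0.59 to 0.77. These correlations share depth, sort and library set.

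Of 101 other actin genes listed by role, limma tested 56 in the CD8+ T cell sort, 38 in the CD4+ T cell sort and 35 in the dendritic sort, and it called 0 in each. At an unadjusted p under 0.05 there were 4, 3 and 2, beside 8.29%, 10.4% and 6.88% of all genes tested, and nothing is read from these counts. The CD8+ T cell sort had 25 higher with D18 and 31 lower (median -0.08), the CD4+ T cell sort 15 and 23 (-0.08), and the dendritic sort 6 and 29 (-0.65, the same as all genes). Without dendritic D18 replicate 2 that last split was 18 higher and 17 lower. Subunits of the Arp2/3 complex, which nucleates branches, were mostly lower with D18: 7 of 9 in CD8+ T cells (median -0.38), 7 of 7 for CD4+ (-0.29) and 6 of 6 in the dendritic sort (-0.54), none past the test. Over all genes tested 811 of 1569, 468 of 966 and 612 of 886 were lower, with medians of -0.03, 0.03 and -0.65. Without dendritic D18 replicate 2 the Arp2/3 count there was 5 of 6 with a median of -0.17, beside 421 of 886 for all genes. Under quantile normalisation these counts were 7 of 9, 5 of 7 and 4 of 6. With the set as a term they were 9 of 9, 4 of 7 and 6 of 6. The most abundant subunit, Arpc1b, differed by 0.00 ± 0.41, -0.29 ± 0.48 and -0.13 ± 0.68.

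Of the most abundant genes of the other roles, none passed the adjusted test. Tpm3 and Iqgap1 were the most abundant of their roles in each sort. Tpm3 differed by -0.29 ± 0.46, 0.20 ± 0.53 and -0.65 ± 0.62 in the 3 sorts, without overlap in the dendritic sort. Iqgap1 differed by 0.48 ± 0.46, 0.03 ± 0.54 and 0.33 ± 0.60, with overlap in each. Wdr1, Capzb, Capg, Myl12a, Myl6 and Cdc42 were the most abundant of a role in some sorts, with overlap there. Mrtfb and, in CD4+ T cells, Vasp were not tested, nor was the formin Fmnl1 in the dendritic sort. Tmsb10, a second thymosin, had a log2 difference of 0.85 ± 0.75 for CD8+, 0.79 ± 1.10 for CD4+ and 0.90 ± 1.00 in the dendritic sort, with overlap in each. Rac2, a GTPase of blood cells that drives branched growth, differed by 0.49 ± 0.48 in CD8+ T cells and 1.29 ± 0.63 in CD4+ T cells, where the within-set value was -0.04, and by -0.94 ± 0.99 in the dendritic sort. Fmnl1, a formin of blood cells and the most abundant one beside Diaph1 in CD8+ T cells, had 9, 24 and 8 reads with the antibody alone and 16, 73 and 9 with D18. On normalised reads its groups did not overlap (1.00 ± 0.44, limma adjusted p = 0.607). Lcp1, which bundles filaments, differed by -0.30 ± 0.40, -0.03 ± 0.46 and -1.86 ± 1.43 in the 3 sorts, with 0 reads in dendritic D18 replicate 2. Gsn, gelsolin, which severs and caps filaments, had 58, 14 and 81 reads against 25, 2 and 20 in the dendritic sort (-1.52 ± 0.70, limma adjusted p = 0.551), without overlap. Hcls1, a cortactin relative of blood cells, had 27, 34 and 62 reads there against 23, 0 and 44 (-2.27 ± 1.10). The 0 came from D18 replicate 2, the shallowest library. In CD8+ and CD4+ T cells Hcls1 differed by -0.27 ± 0.61 and -0.51 ± 0.72, with overlap in both.

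**Figure D5:**
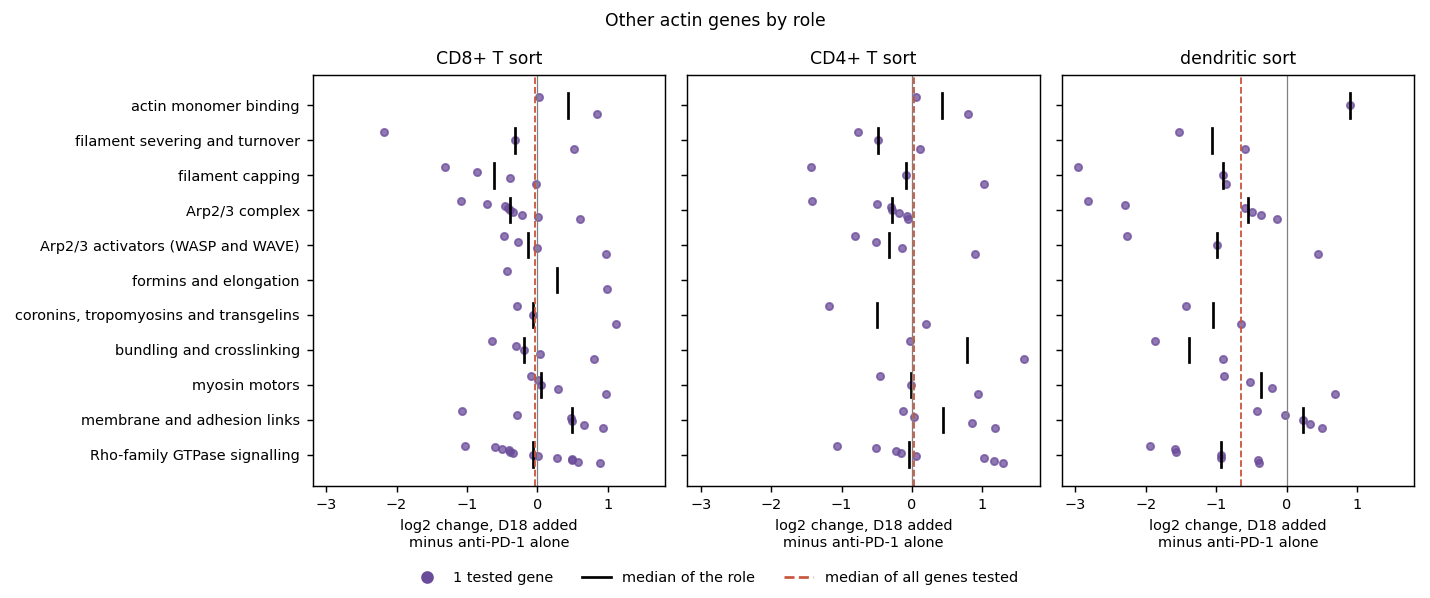
Log2 difference of the other tested actin genes by role, 1 point per gene. Black bars are the median of a role, and the dashed red line the median of all genes tested, which is -0.65 in the dendritic sort. Points spread to both sides of 0 in both T cell sorts and lie mostly below 0 in the dendritic sort.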

How the data were processed

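Per the labels' protocols, cells were sorted into lysis buffer and RNA was amplified by Smart-Seq2, a protocol that does not mark strand. The submitters' processing notes name STAR 2.4.0 for alignment, mm10 as the build, HTSeq 0.6.1 for counts per gene and DESeq2, with no version, for the normalisation by the authors. The deposited tables, 1 per sort, hold log2 values that the authors made from normalised reads with a variance-stabilising transform. Undoing it and dividing by the smallest value of a library gave whole reads for 100% of values within 0.001. Gene IDs were matched to GENCODE M21 (GRCm38) for 46488 of 46983 genes. The actin genes and all lists were chosen with earlier results of these data known.

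The test was limma 3.58.1 (R 4.3.3, trend and robust) on normalised reads, separately per table because the tables were normalised separately, with a pseudocount of 1, a mean of at least 10 over 6 libraries, no block and Benjamini-Hochberg adjustment over all genes. A fold change on this scale understates that of low genes. Levels are set side by side across sorts as descriptions only. Named genes are the 10, the most abundant gene of each actin role per sort, and the 5 most alike in profile. Values are printed for only some of the most abundant genes. Alternatives were other scalings, pseudocounts of 0.1 and 10, no filter or a mean of at least 50, limma-voom, the deposited values, the replicate block, the library set as a term, and libraries left out. In CD8+ T cells, libraries of the same replicate number deviated together (correlations 0.36, 0.51 and 0.56). The numbers come from the sample titles, and a pairing by them rests on these correlations only. The main fit did not use it, so its CD8+ p-values ignore any such pairing. With the replicate block, the limma adjusted p of Diaph1 in CD8+ T cells was 0.0589, against 0.534 without it. Other steps used Python 3.11.15 with pandas 2.3.3, scipy 1.17.1 and matplotlib 3.10.9.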

Additional observations from a re-analysis of the deposited data

How the results depend on the processing

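Of 516 recomputed values for the 31 results on single genes, 491 kept their direction and side of the threshold, 24 changed sign and 1 passed the threshold. The one that passed was Marcks in CD4+ T cells with both libraries numbered 3 left out (-3.50, limma adjusted p = 0.0499). Quantile normalisation turned Actb to 0.31 in CD8+ T cells and 0.42 in CD4+ T cells, and Tpm4 to 0.31 in the dendritic sort. limma-voom turned Tmsb4x to -0.094 in CD4+ T cells and -0.57 in the dendritic sort, and there also Tpm4 to 0.10 and Marcks to -0.11. The library set as a term turned Coro1a to 0.090 in CD8+ T cells, and in the dendritic sort Actg1 to -0.24, Tmsb4x to -0.16 and Marcks to -0.041. Leaving out both libraries numbered 3 turned Tmsb4x to -0.32 in CD4+ T cells and -0.11 in the dendritic sort. With 1 library left out, ranges that crossed 0 were -0.36 to 0.64 for Tmsb4x in CD4+ T cells and -0.26 to 0.036 for Coro1a in CD8+ T cells. In the dendritic sort they were -0.84 to 0.029 for Actb, -1.96 to 0.26 for Coro1a, -0.038 to 0.44 for Marcks, -0.45 to 1.28 for Tmsb4x and -0.75 to 0.033 for Tpm4. The cause of these changes was not tested.

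Genes called over the whole table, 0 in every comparison, were 1 with the deposited log2 values, 22 without the filter and 20 with the replicate block in CD8+ T cells. They were 29 without the filter and 34 with both libraries numbered 3 left out in CD4+ T cells, and 1 under quantile normalisation in the dendritic sort. With 1 library left out the count ran from 0 to 2 in CD8+ T cells (2 without D18 replicate 3), from 0 to 19 in CD4+ T cells (19 without anti-PD-1 replicate 3) and stayed at 0 in the dendritic sort. The interaction of CD8+ and CD4+ T cells called 14 genes with both libraries numbered 3 left out and 0 to 19 with 1 library left out (19 without CD4+ anti-PD-1 replicate 3). Where a library left out leaves fewer in a group, the spread is taken from all libraries of the fit. The block by replicate number called 0 genes in CD4+ T cells and the dendritic sort, where libraries of a number correlated at -0.14, 0.15 and -0.20 and at 0.03, -0.09 and 0.14, and it called none of the 10 genes in any sort. With few reads of Diaph1, Marcks and Tpm4 per library and 4 reads of Actg1 in the shallowest, depth limits what these values can show.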

Other observations

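A gene outside the 10, Capza2, which encodes a subunit of the capping protein that stops filament growth, was picked after its values were seen. It had 30, 131 and 77 reads with the antibody alone and 7, 108 and 16 with D18 in CD8+ T cells, or 440, 808 and 734 against 137, 429 and 274 CPM. In CD4+ T cells the levels of Capza2 were 770, 1757 and 549 CPM against 273, 496 and 243 CPM. The dendritic levels were 861, 703 and 707 CPM against 163, 0 and 286 CPM, where the 0 allows up to 314 CPM. All D18 libraries were below all anti-PD-1 libraries within each sort, as for 7.65%, 9.21% and 19.9% of all genes tested in each sort taken alone. The share of genes lower in this way in all 3 sorts at once was not counted. The log2 differences of Capza2 were -1.31 ± 0.50, -1.43 ± 0.57 and -2.97 ± 1.07 (SE, n = 3 per group), with limma adjusted p values of 0.564, 0.453 and 0.551, so none passed. Its within-set values were -1.61, -0.75 and -2.87. The macrophage markers, given with Diaph1, also had a lower median with D18 in each sort, and their part in these values was not tested.

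The sum of all 10 actin genes as a share of nuclear reads was highest in CD8+ T cell D18 replicate 1, at 5.16%, followed by dendritic anti-PD-1 replicate 1 at 4.80% and CD8+ T cell D18 replicate 3 at 4.76%, and lowest in dendritic D18 replicate 2, at 1.38%. Without Actb and Tmsb4x the share ran from 0.220% in that library to 1.45% in CD8+ T cell anti-PD-1 replicate 2.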
